A study of Mus musculus with 6 samples.

Results

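A list of 42 genes that build the mitotic spindle or carry out cytokinesis, kinesins left out, was followed in mouse tumour cells made to overexpress AC9. The genes were found by their platform gene symbols, with 1 probe set per gene, and 38 of the 42 were measured among 19505 genes in all. Ckap5, Tacc1, Haus3 and Haus5 were not analysed here. The cells were 393P, written 9393P in some labels, which came from a mouse adenocarcinoma of the lung. They carried a stable transfection of AC9 in one group and of the empty VECTOR in the other, with 3 arrays in each. Both groups were selected with puromycin or G418, but the labels do not match drugs to groups. They also leave unsaid whether the selected cells were pools or clones, so a difference of drug or of selected cells cannot be told apart from AC9. Total RNA was read on Affymetrix Clariom S arrays, and every level below is a log2 intensity deposited by the authors after RMA, so a step of 1 is a doubling of signal.

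Adcy9, the gene of the enzyme adenylyl cyclase 9, for which AC9 is a listed synonym, read 6.78, 6.60 and 6.82 in AC9 cells, against 6.12, 6.09 and 6.15 in VECTOR cells (log2 change 0.61, SE 0.10, limma adjusted p = 0.00264). The groups did not overlap. The median gene level was 6.42 to 6.46 on every array. Across genes, which are not independent replicates, arrays correlated at 0.994 to 0.996 within groups and 0.985 to 0.988 between groups. A bound for dim signals was the 90th percentile of 5222 negative-control probe sets. This bound lay at 6.11, 6.08 and 6.09 on the AC9 arrays and at 6.02, 5.997 and 6.07 on the VECTOR arrays. The VECTOR levels of Adcy9 were above the bound but close to it, and the part of dim signal in its change was not tested. All 6 epithelial markers tested lay above the bound on every array. Of 4 leukocyte and 5 endothelial markers measured, 0 lay above it on any array, and of 5 fibroblast markers 1, Col1a1, lay above it on every array. The summed linear signal of the leukocyte markers was 90.7 to 97.9 in AC9 and 72.4 to 91.3 in VECTOR, against 19994 to 20912 in AC9 and 21529 to 23077 in VECTOR for the epithelial markers. Background probe sets, meant to match no transcript, moved opposite to most of the spindle genes: 19 of 23 were lower in AC9 without overlap, by a log2 difference of up to -0.50. The 5222 negative controls did not fall with them, with a median log2 difference, AC9 minus VECTOR, of 0.0185.

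The mitotic spindle is built when microtubules grow from centrosomes, around chromosomes and, through the augmin complex, from the sides of other microtubules. Pole and crosslinking proteins then focus it, plus-end proteins steer microtubule growth, and after chromosomes part the central spindle tells the cortex where to assemble the contractile ring. Many of these genes are transcribed mainly in late S, G2 and M phase, so in a bulk sample more cells in mitosis and more transcript per dividing cell cannot be told apart. In dividing cells several of their promoters are known to carry a cell cycle genes homology region (CHR), bound by the MuvB complexes, and CCAAT boxes, bound by NF-Y.

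In AC9 cells 25 of the 38 measured genes rose, 2 fell and 11 did not pass the test (limma, adjusted p of 0.05 over all genes). Of all genes, 17.6% were called, 8.26% higher and 9.29% lower, or 13.4% and 14.8% among the 9913 genes above the bound on every array. The median log2 change of the 38 was 0.88, beside 0.016 for all genes, and 17 of them rose at least 2-fold, which 0.713% of all genes did. Every AC9 array exceeded every VECTOR array for 29 of the genes and lay below every VECTOR array for 3, which held for 17.3% and 17.7% of all genes. Among the 20 genes of the whole table with the largest rise, 6 were in the list: Aspm, Prr11, Depdc1a, Nusap1, Troap and Hmmr. Aspm was under the bound on every VECTOR array, and with such genes taken at their bound (2.83-fold for Aspm), a count added after the values were seen, 5 of the 20 were in the list, all but Aspm. By role, 12 of the 25 that rose were spindle pole and spindle microtubule genes and 7 were central spindle and cytokinesis genes, while 1 of 6 augmin genes and 1 of 5 plus-end genes rose.

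**Figure D1:**
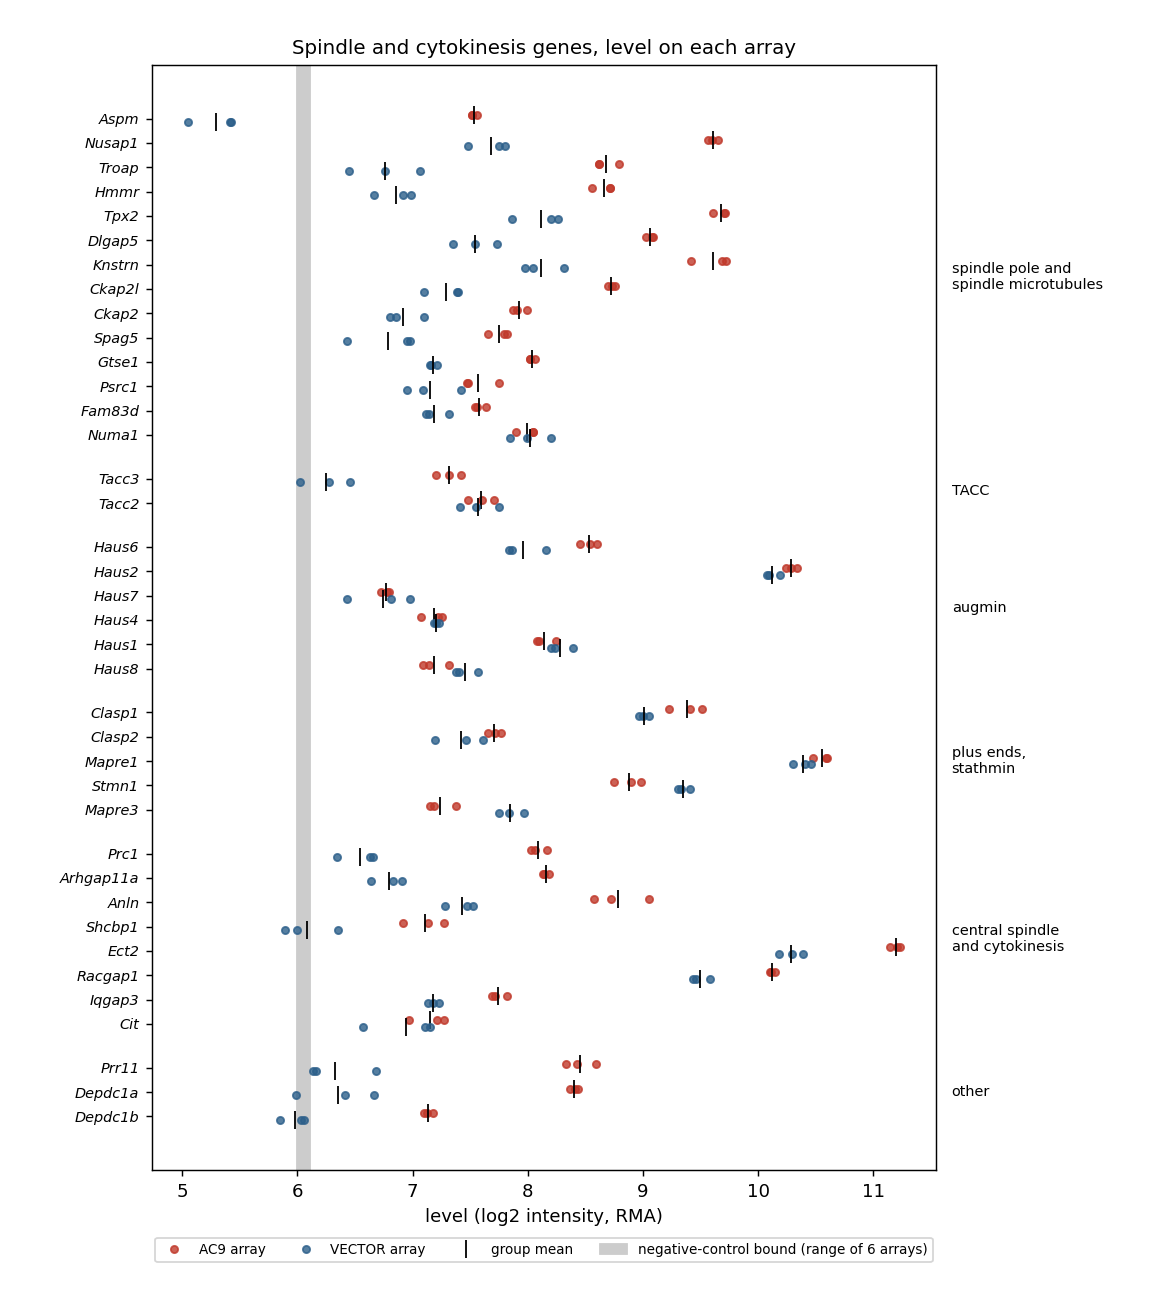
Level of each measured gene (log2 intensity) on the AC9 arrays and the VECTOR arrays, grouped by role; each dot is 1 array, the black tick is the mean of 3 arrays, and the grey band is the range of the negative-control bound. For Aspm all 3 VECTOR dots lie left of the band, and for 29 genes all AC9 dots lie right of all VECTOR dots.

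Promoters of the 6 genes with the largest log2 change are shown to let their shared letters be read beside the changes. RefSeq windows on GRCm38.p6, reaching from 250 bases before the start site to 50 after it, were found for 31 of the 38 genes. Each is written 5′ to 3′ along the gene's own strand, and capitals mark CHR letters (TTTGAA or TTCGAA) and CCAAT boxes on either strand, so that TTCAAA and ATTGG are the same motifs read from the other strand. Aspm, Prr11, Depdc1a and Hmmr held CHR letters close to the start, Troap held CCAAT boxes but no CHR letters, and Nusap1 held neither.
Aspm (chr1:139454523-139454822, plus strand): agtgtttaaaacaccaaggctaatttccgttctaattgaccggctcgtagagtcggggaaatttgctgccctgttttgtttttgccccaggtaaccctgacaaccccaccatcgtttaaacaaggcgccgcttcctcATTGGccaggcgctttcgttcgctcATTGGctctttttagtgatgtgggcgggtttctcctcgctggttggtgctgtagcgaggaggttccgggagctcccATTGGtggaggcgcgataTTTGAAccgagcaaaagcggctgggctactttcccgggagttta
Prr11 (chr11:87108665-87108964, minus strand): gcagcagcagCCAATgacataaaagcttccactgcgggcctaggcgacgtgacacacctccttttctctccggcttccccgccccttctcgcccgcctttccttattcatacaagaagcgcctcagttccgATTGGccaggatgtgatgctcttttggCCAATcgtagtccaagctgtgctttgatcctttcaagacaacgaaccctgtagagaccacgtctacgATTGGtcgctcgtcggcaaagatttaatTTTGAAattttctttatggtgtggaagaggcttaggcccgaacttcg
Depdc1a (chr3:159495183-159495482, plus strand): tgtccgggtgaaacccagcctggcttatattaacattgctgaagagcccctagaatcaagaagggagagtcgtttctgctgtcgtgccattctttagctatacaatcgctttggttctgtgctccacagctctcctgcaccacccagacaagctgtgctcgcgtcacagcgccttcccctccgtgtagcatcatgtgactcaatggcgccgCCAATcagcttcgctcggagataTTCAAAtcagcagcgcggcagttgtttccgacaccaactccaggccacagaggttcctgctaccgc
Nusap1 (chr2:119618048-119618347, plus strand): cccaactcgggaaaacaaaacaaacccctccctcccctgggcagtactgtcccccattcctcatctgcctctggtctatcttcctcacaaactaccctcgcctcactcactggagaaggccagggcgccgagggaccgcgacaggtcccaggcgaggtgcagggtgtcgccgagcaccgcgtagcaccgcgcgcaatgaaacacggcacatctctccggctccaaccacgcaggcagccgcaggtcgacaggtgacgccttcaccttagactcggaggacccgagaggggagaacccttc
Troap (chr15:99074723-99075022, plus strand): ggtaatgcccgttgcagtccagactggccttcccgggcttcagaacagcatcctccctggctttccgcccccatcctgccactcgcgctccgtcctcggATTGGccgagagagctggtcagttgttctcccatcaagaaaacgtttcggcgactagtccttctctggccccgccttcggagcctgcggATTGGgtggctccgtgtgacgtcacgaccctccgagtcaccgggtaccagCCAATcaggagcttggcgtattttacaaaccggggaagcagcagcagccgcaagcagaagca
Hmmr (chr11:40733388-40733687, minus strand): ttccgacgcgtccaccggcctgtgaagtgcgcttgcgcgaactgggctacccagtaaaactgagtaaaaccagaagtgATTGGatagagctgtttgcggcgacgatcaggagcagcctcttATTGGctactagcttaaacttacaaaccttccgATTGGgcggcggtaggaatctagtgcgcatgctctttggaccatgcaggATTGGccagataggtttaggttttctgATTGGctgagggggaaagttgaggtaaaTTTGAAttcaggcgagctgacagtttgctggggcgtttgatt

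Counting base 1 as the start site, the CHR letters began at position 7 in Aspm, 4 in Prr11 and 9 in Hmmr on the gene's strand, and at -16 in Depdc1a on the opposite strand. In each of these 4 windows a CCAAT box lay upstream within the same window, the nearest beginning at -12 in Aspm, -25 in Prr11, -20 in Hmmr and -39 in Depdc1a. Aspm held 3 CCAAT boxes, Troap 3, Prr11 4 and Hmmr 5. Of the 20 genes that rose and had a window, 14 (70%) held CHR letters, against 2 of the 11 (18.2%) that fell or did not pass, and 21.7% of all 27025 genes with a window. When only the 150 bases before the start were searched, CHR letters were in 8 of the 20 (40%), against 2 of the 11 (18.2%) and 11.2% of all genes. Over the whole window, CCAAT boxes were in 15 of the 20 (75%), in 6 of the 11 (54.5%) and in 41.1% of all genes. E2F-like letters (TTTCGCGC, TTTGGCGC, TTTCCCGC or TTTGCCGC, either strand) were in 1 gene of the 31, Arhgap11a, and in 2.6% of all genes. Matches of different motifs overlapped 0 times. With matches counted only within 50 bases on either side of the start, a distance chosen after the positions were seen, 12 of the 20 (60%) held CHR letters, against 1 of the 10 that did not pass, 0 of 1 that fell and 6.12% of all genes. These are matches of letters, not measured binding. Of the 31 genes, 8 had several windows, and any window counted, while 15.4% of all genes had several. Nusap1, Knstrn and Tacc3 rose without a match to any of the 3 motifs in the window.

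**Figure D2:**
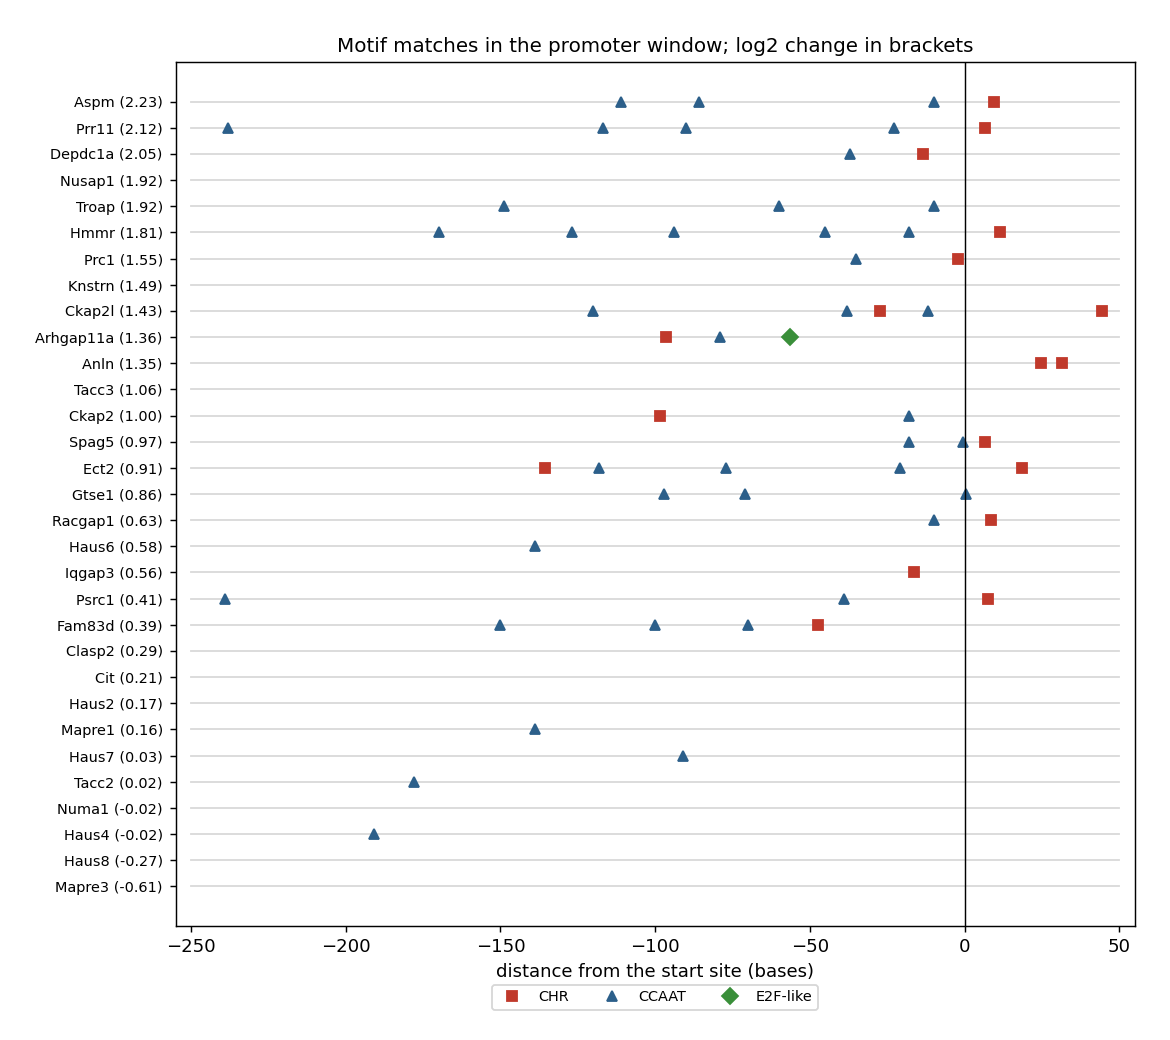
Positions of CHR, CCAAT and E2F-like letters in the promoter window of each of 31 genes (the window of lowest coordinate where a gene has several), in bases from the start site, with genes ordered by their log2 change, AC9 minus VECTOR, which is given in brackets. CHR squares lie near the start in many rows of genes that rose, at larger and smaller changes alike. With any window counted, CHR letters were in 70% of the genes that rose, against 18.2% of those that fell or did not pass. The CHR letters of Clasp2 lay in a window that is not plotted.

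Spindle pole and spindle microtubule genes rose nearly throughout: 12 of 14 rose, 0 fell, and the median log2 change was 1.46. Aspm, which focuses microtubule minus ends at the poles, read 7.52, 7.56 and 7.52 in AC9 cells, against 5.05, 5.43 and 5.41 in VECTOR cells. All VECTOR arrays lay under the bound for dim signals, so the rise is given as at least 2.83-fold, set against the bound of each array. The limma adjusted p of 9.91e-06 belongs to the fit of the deposited values (log2 change 2.23), and the 2.83-fold limit itself was not tested. The transcript was thus above the bound on every AC9 array and on 0 of the VECTOR arrays. Nusap1, which bundles microtubules near chromosomes, read 9.65, 9.57 and 9.60 in AC9, against 7.49, 7.75 and 7.80 in VECTOR, a log2 change of 1.92 (SE 0.11, adjusted p = 1.28e-05) or 3.80-fold. Troap, a protein needed for bipolar spindles, read 8.61, 8.62 and 8.79 in AC9, against 6.45, 6.76 and 7.06 in VECTOR. Its change of 1.92 was as large, but its VECTOR arrays were spread more widely (SD 0.103 in AC9 and 0.305 in VECTOR, n = 3 each).

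Hmmr, a hyaluronan-binding protein that also sits on spindle microtubules, read 8.71, 8.56 and 8.71 in AC9, against 6.91, 6.67 and 6.99 in VECTOR (log2 change 1.81, SE 0.11). Tpx2, which activates Aurora A and starts microtubules around chromosomes, read 9.71, 9.71 and 9.61 in AC9, against 8.21, 7.86 and 8.26 in VECTOR (1.56, SE 0.12). Dlgap5, which steadies the kinetochore fibres, had 9.09, 9.08 and 9.02 in AC9, against 7.54, 7.35 and 7.73 in VECTOR (1.52, SE 0.11). For each of these 3 every AC9 array lay above every VECTOR array, and the adjusted p was 2.03e-05, 5.36e-05 and 4.52e-05.

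Knstrn and Spag5, partners in the astrin complex that holds kinetochores to microtubules, both rose. Knstrn read 9.68, 9.72 and 9.41 in AC9, against 8.32, 8.04 and 7.98 in VECTOR, a log2 change of 1.49 (95% interval 1.21 to 1.78). Spag5 read 7.79, 7.82 and 7.65 in AC9, against 6.43, 6.97 and 6.95 in VECTOR, a change of 0.97 (0.63 to 1.30). The difference of these 2 changes was not tested. Ckap2, a microtubule nucleation factor, rose by 1.00 (SE 0.11, adjusted p = 0.000309), and its relative Ckap2l, a spindle pole protein, by 1.43 (SE 0.11, adjusted p = 4.52e-05). Gtse1, which stabilises microtubules and also restrains p53, read 8.02, 8.02 and 8.06 in AC9, against 7.16, 7.15 and 7.21 in VECTOR. Its change of 0.86 (SE 0.09, adjusted p = 0.000240) rested on the tightest replicates of the role, with SDs of 0.0243 in AC9 and 0.0330 in VECTOR.

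The remaining pole genes had smaller changes. Fam83d, which recruits casein kinase 1 to the spindle, read 7.64, 7.56 and 7.54 in AC9, against 7.14, 7.12 and 7.31 in VECTOR, a log2 change of 0.39 (SE 0.10, adjusted p = 0.0212). That call was lost without any 1 of AC9 replicates 1, 2 and 3 (adjusted p 0.0829, 0.0551 and 0.0535) or VECTOR replicates 1 and 2 (0.0658 and 0.0652). Psrc1, a spindle protein that promotes chromosome congression, had a change of about the same size, 0.41 (SE 0.14), but did not pass (adjusted p = 0.0724). It had 7.48, 7.75 and 7.47 in AC9, against 6.95, 7.42 and 7.09 in VECTOR, so the groups lay apart by a small gap. It passed without VECTOR replicate 2 (adjusted p = 0.0251). Numa1, which gathers microtubules at the poles and links dynein to the cortex, also serves in the interphase nucleus. It read 7.90, 8.05 and 8.05 in AC9, against 7.997, 7.85 and 8.20 in VECTOR, a change of -0.02 (95% interval -0.27 to 0.23), with overlapping groups.

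**Figure D3:**
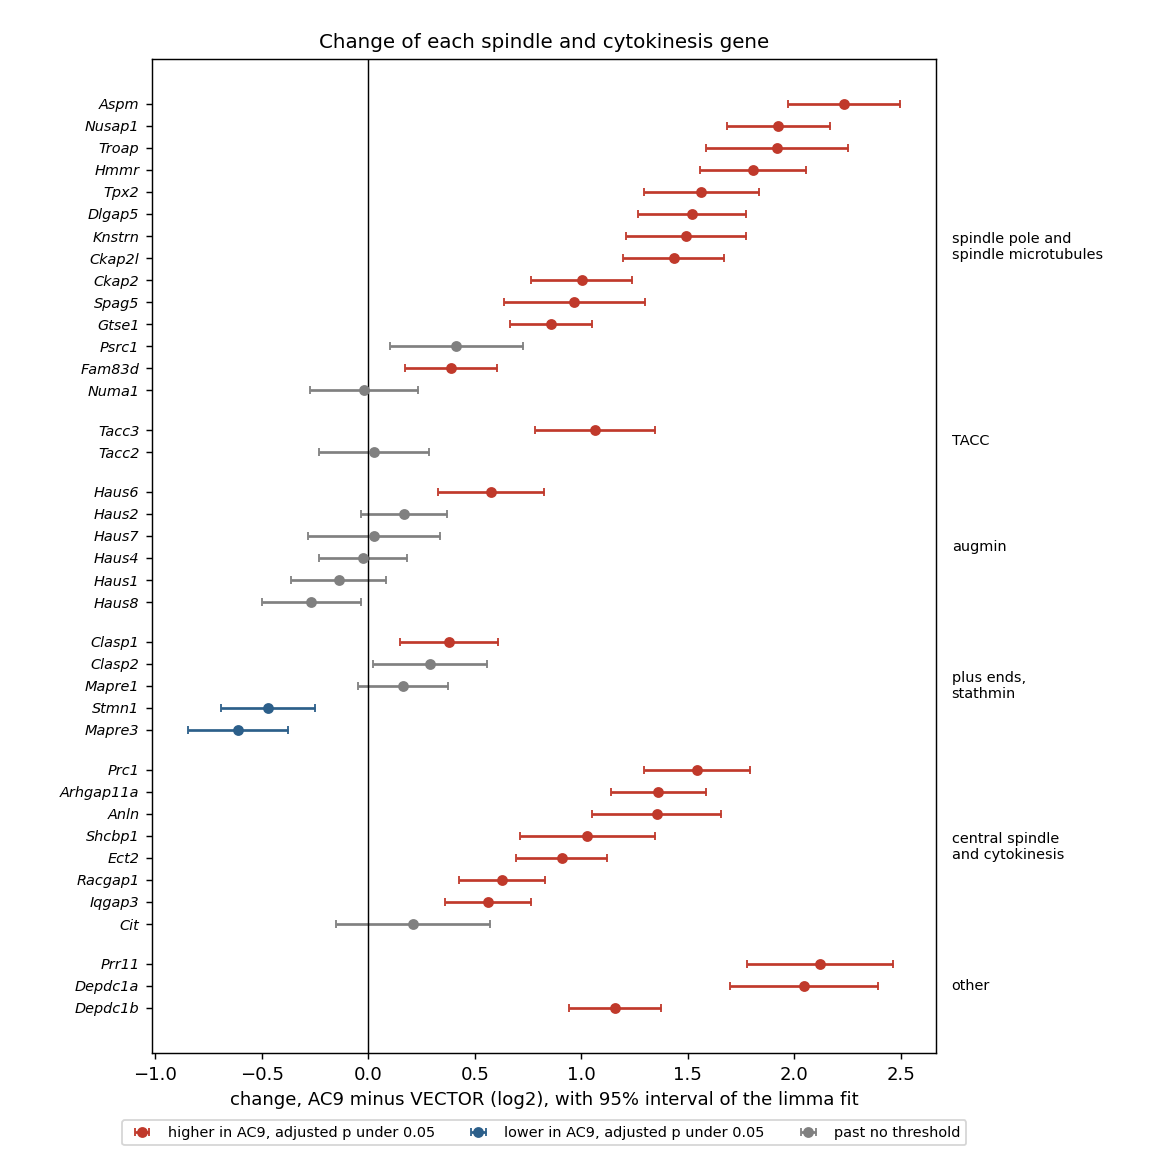
Log2 change, AC9 minus VECTOR, of each measured gene with the 95% interval of the limma fit, grouped by role and coloured by the call. Pole, central spindle and contractile ring genes lie mostly right of 0, augmin genes lie around 0, and Mapre3 and Stmn1 lie left of it. For Aspm the VECTOR level was under the bound, and the plotted change of 2.23 depends on that dim signal.

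Genes of the central spindle, the contractile ring and cytokinesis followed, with 7 of 8 higher, 0 lower and a median log2 change of 0.97. Prc1, which crosslinks antiparallel microtubules of the central spindle, read 8.03, 8.07 and 8.17 in AC9, against 6.34, 6.63 and 6.65 in VECTOR. It rose by 1.55 (SE 0.11, adjusted p = 4.06e-05), or 2.92-fold, with a gap of more than 1 log2 unit between the groups. Arhgap11a, a GTPase-activating protein, read 8.13, 8.18 and 8.14 in AC9, against 6.91, 6.64 and 6.83 in VECTOR (1.36, SE 0.10). Anln, the scaffold that ties actin, myosin and septins in the ring, read 8.72, 9.05 and 8.57 in AC9, against 7.28, 7.53 and 7.47 in VECTOR (1.35, SE 0.13). Of the called genes of this role, Anln had the largest spread in AC9 (SD 0.245, n = 3).

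Both listed genes of the step that triggers the contractile ring rose. Ect2, an exchange factor that acts at the cell equator, read 11.23, 11.21 and 11.14 in AC9, against 10.29, 10.18 and 10.39 in VECTOR, a log2 change of 0.91 (SE 0.09, adjusted p = 0.000305). Racgap1, the centralspindlin subunit that binds Ect2, read 10.15, 10.10 and 10.11 in AC9, against 9.43, 9.59 and 9.46 in VECTOR, a change of 0.63 (SE 0.09, adjusted p = 0.00166). Neither pair of groups overlapped. Shcbp1, a Racgap1-binding protein of the midbody, read 7.27, 7.13 and 6.92 in AC9, against 5.99, 5.90 and 6.35 in VECTOR (1.03, SE 0.14, adjusted p = 0.00130). Only 1 of its 3 VECTOR arrays lay above the bound, so the size of its change rests in part on dim signal.

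Iqgap3, a scaffold of the cell cortex, rose by 0.56 (SE 0.09, adjusted p = 0.00288), with 7.72, 7.82 and 7.69 in AC9, against 7.18, 7.13 and 7.23 in VECTOR. Cit, citron kinase of the midbody, was the exception in this role. It read 7.21, 6.97 and 7.27 in AC9, against 6.57, 7.10 and 7.15 in VECTOR, a change of 0.21 (95% interval -0.15 to 0.57, adjusted p = 0.441). The groups overlapped, and its SE of 0.16 was the largest of the 38 genes.

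Of the 3 other mitotic genes all rose. Prr11, a proline-rich protein whose level follows the cell cycle, read 8.59, 8.33 and 8.43 in AC9, against 6.16, 6.14 and 6.69 in VECTOR, a log2 change of 2.12 (SE 0.15, adjusted p = 4.23e-05). Depdc1a, a DEP-domain protein of mitotic cells, read 8.44, 8.37 and 8.41 in AC9, against 6.41, 5.99 and 6.67 in VECTOR (2.05, SE 0.15, adjusted p = 5.00e-05). Its paralog Depdc1b read 7.10, 7.13 and 7.17 in AC9, against 5.85, 6.05 and 6.03 in VECTOR (1.16, SE 0.10, adjusted p = 8.00e-05). VECTOR arrays above the bound numbered 3 of 3 for Prr11, 2 of 3 for Depdc1a and 1 of 3 for Depdc1b. For Prr11, VECTOR replicates 1 and 2 (6.16 and 6.14) lay close to their bounds (6.02 and 5.997). The part of dim signal in the changes of these 3 genes was not tested.

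The augmin complex, which branches new microtubules from the sides of existing ones, had 1 of 6 measured subunits higher and 0 lower, a called share of 16.7% beside 17.6% of all genes. The median log2 change was 0.00112, beside 0.016 for all genes. Haus6, the subunit through which augmin reaches the gamma-tubulin ring complex, read 8.60, 8.54 and 8.45 in AC9, against 7.84, 7.87 and 8.16 in VECTOR. It rose by 0.58 (SE 0.11, adjusted p = 0.00708). Haus2 read 10.34, 10.28 and 10.25 in AC9, against 10.08, 10.10 and 10.19 in VECTOR; its groups lay apart, but the change of 0.17 did not pass (adjusted p = 0.246). Haus8, the subunit that binds the microtubule wall, read 7.09, 7.15 and 7.32 in AC9, against 7.38, 7.57 and 7.40 in VECTOR. All AC9 arrays were below all VECTOR arrays, yet the change of -0.27 (95% interval -0.50 to -0.03) did not pass (adjusted p = 0.112). It passed when genes under the bound in both groups were left out (adjusted p = 0.0433), with fewer genes tested. Haus7, Haus4 and Haus1 had changes of 0.03, -0.02 and -0.14 with overlapping groups.

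Plus-end genes and stathmin moved in both directions, with 1 of 5 higher and 2 lower. Mapre3, the EB3 protein that tracks growing plus ends, read 7.19, 7.15 and 7.38 in AC9, against 7.97, 7.83 and 7.75 in VECTOR. It fell by 0.61 on the log2 scale (SE 0.11, adjusted p = 0.00408), a 1.53-fold difference. Stmn1, stathmin, which sequesters tubulin and is switched off by phosphorylation in mitosis, read 8.89, 8.99 and 8.74 in AC9, against 9.30, 9.41 and 9.33 in VECTOR. It fell by 0.47 (SE 0.10, adjusted p = 0.0104). In both genes every AC9 array was below every VECTOR array, opposite to the pole genes on the same arrays. Background probe sets also read lower in AC9 and reached -0.50, while the negative controls had a median log2 difference of 0.0185. The part of background signal in these falls was not tested.

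Clasp1, which rescues shrinking plus ends, rose by 0.38 (SE 0.10, adjusted p = 0.0322), with 9.41, 9.23 and 9.51 in AC9, against 8.97, 9.05 and 9.004 in VECTOR. Its call was lost without any 1 of 5 arrays, all but AC9 replicate 2 (adjusted p 0.0598 to 0.116). Clasp2, its paralog, had a change of 0.29 (SE 0.12, adjusted p = 0.131). Mapre1, the widely expressed EB1, read 10.59, 10.48 and 10.59 in AC9, against 10.41, 10.30 and 10.46 in VECTOR. Its change of 0.16 (95% interval -0.05 to 0.37) did not pass.

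TACC proteins link motor, clathrin and microtubule growth factors at spindle poles. Tacc3, the family member best known in mitosis, read 7.42, 7.21 and 7.32 in AC9, against 6.02, 6.46 and 6.28 in VECTOR. It rose by 1.06 (SE 0.13, adjusted p = 0.000572), with 2 of its 3 VECTOR arrays above the bound. Tacc2 read 7.48, 7.71 and 7.60 in AC9, against 7.41, 7.55 and 7.75 in VECTOR, a change of 0.02 (95% interval -0.23 to 0.28).

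Changes within 5 pairs of related genes were compared through the difference of the paired signals on each array. The change of Tacc3 exceeded that of Tacc2 by 1.04 (SE 0.17), that of Depdc1a exceeded Depdc1b by 0.89 (SE 0.22), and that of Mapre1 exceeded Mapre3 by 0.77 (SE 0.10). Some VECTOR arrays of Tacc3, Depdc1a and Depdc1b lay under the bound, so differences with these genes rest in part on dim signal. The change of Ckap2 minus that of Ckap2l was -0.43 (SE 0.09). In these 4 pairs the AC9 and VECTOR arrays did not overlap, and each gave p = 0.1 in a two-sided exact permutation test (0.125 after Benjamini-Hochberg adjustment over the 5 pairs), the smallest p that 3 arrays against 3 allow. Clasp1 and Clasp2 differed by 0.09 (SE 0.11, exact permutation p = 0.5, adjusted 0.5).

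The spread among arrays is given for the genes that rose as a description, without a test, since these genes share the same 6 arrays. Over the 25, the median SD was 0.0615 in AC9 and 0.171 in VECTOR (n = 3 each), while over all genes it was 0.115 in AC9 and 0.132 in VECTOR. For 22 of the 25 the SD was larger in VECTOR, which held for 57.3% of all genes. The 25 were chosen as higher in AC9, so each was dimmer in VECTOR, and all genes were not matched to them for level. The part of signal level in this difference of spread was not tested. Their mean level was 8.56, 8.53 and 8.50 on the AC9 arrays, against 7.18, 7.21 and 7.38 on the VECTOR arrays. VECTOR replicate 3 was the highest VECTOR array for 16 of the 25 genes and the lowest for 1. Without that array 24 of the 38 genes rose, and 23 or 24 did without any other single array.

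**Figure D4:**
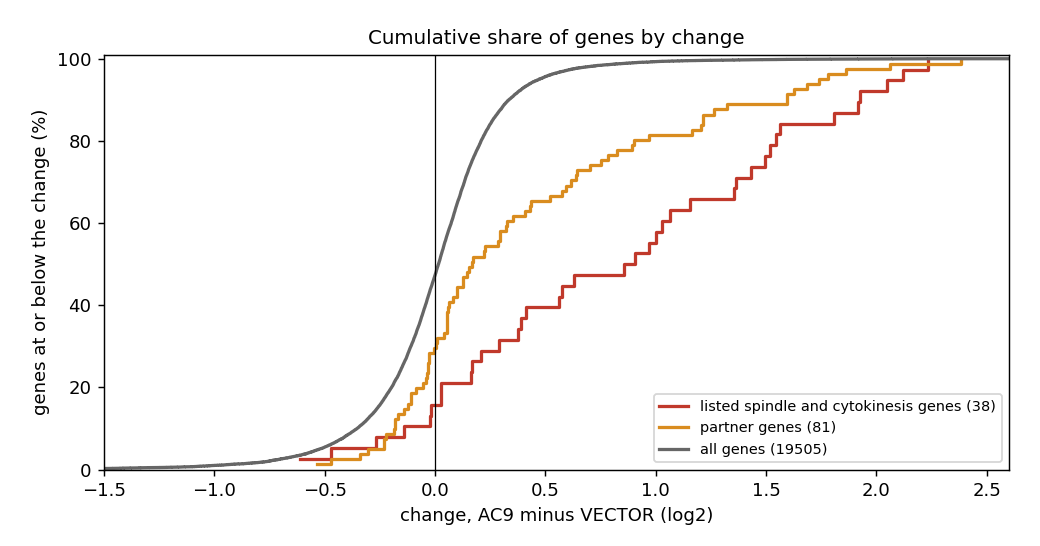
Cumulative share of genes (%) at or below a given log2 change, AC9 minus VECTOR, for the 38 measured spindle and cytokinesis genes, 81 partner genes of the same processes and all 19505 genes. The curve of the listed genes crosses its midpoint at 0.88, that of the partner genes at 0.17 and that of all genes at 0.016.

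Other genes of spindle assembly and cytokinesis were taken from a separate list, of which 81 were measured: 32 rose, 2 fell and 47 did not pass, with a median log2 change of 0.17. The shares over all genes were 8.26% higher and 9.29% lower. The 10 mitotic kinesins in the separate list all rose, by 0.60 to 2.38. Kif11, which slides spindle poles apart, rose by 2.38 (SE 0.12), Kif2c, which shortens microtubules at kinetochores, by 2.06 (SE 0.10), and Kif23, the motor subunit of centralspindlin and partner of Racgap1, by 1.68 (SE 0.12). Kif15, Kif4 and Kif14 lay under the bound on every VECTOR array and rose at least 2.96-fold, 2.03-fold and 1.41-fold. Plk1, the kinase that prepares Racgap1 to bind Ect2, rose by 1.78 (SE 0.13, adjusted p = 3.92e-05). All 4 genes of the chromosomal passenger complex in the list rose, by 0.64 to 1.20.

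No group within that list was planned beforehand, the kinesin and chromosomal passenger groups above included. Some smaller groups of that list, formed after the values were seen, are given as counts alone. Past the adjusted threshold 8.26% of all genes were higher and 9.29% lower. The share of all genes at an unadjusted p under 0.05 was not counted, so the unadjusted counts cannot be read as a lean. Of 9 genes of the gamma-tubulin complex, 0 passed limma's adjusted threshold, with changes of -0.30 to 0.06, while 3 were lower and 0 higher at an unadjusted p under 0.05. Among those lower was Tubgcp6, which lay under the bound on every array, as did Tubgcp5 of the same group. Of 14 genes of ESCRT and abscission, which cut the last bridge between daughter cells, 0 rose and 1 fell, while 2 were higher and 2 lower at an unadjusted p under 0.05. The gene that fell, Chmp4c, which times abscission, read 7.88, 7.99 and 7.94 in AC9, against 8.47, 8.58 and 8.37 in VECTOR (log2 change -0.54, SE 0.10, adjusted p = 0.00497). Dctn1, a dynactin subunit, read 8.46, 8.46 and 8.57 in AC9, against 8.90, 9.13 and 8.88 in VECTOR (-0.47, SE 0.10, adjusted p = 0.0118). Among 5 septins 1 rose, Septin2, by 0.43. Genes of that list with roles outside mitosis were mixed. Some rose: the importins Kpna2 and Kpnb1 by 0.83 and 0.52, the kinase Rock1 by 0.64, Kansl3 by 0.57, the Ran exchange factor Rcc1 by 0.44, the dynein regulator Pafah1b1 by 0.41 and the non-muscle myosin Myh10 by 0.32. Others did not pass, among them Ran (-0.006), Rhoa (-0.09), Myh9 (0.16), Diaph1 (0.13) and Dync1h1 (0.32). Not all markers of dividing cells passed. Mki67, a marker of cycling cells, changed by 2.12 and the mitotic topoisomerase Top2a by 1.35 (adjusted p 2.26e-05 and 0.000159). Pcna, the replication clamp, changed by 0.34 (adjusted p = 0.0508) and the replication helicase subunit Mcm2 by -0.04 (0.827), and neither passed.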

How the data were processed

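The data were 6 Affymetrix Clariom S arrays, 3 of AC9 and 3 of VECTOR cells. The values were log2 intensities deposited by the authors, made with RMA (background correction, quantile normalization, summary per probe set) per the submitters' processing notes; no source used here gives its software version or genome build. RMA can compress changes of dim genes. Of 28846 probe sets, 19572 had 1 gene symbol in the platform annotation, all matched by gene number to RefSeq (GRCm38.p6). For 55 genes with several probe sets the one with the highest mean was kept.

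AC9 was compared with VECTOR by limma 3.58.1 in R 4.3.3 (lmFit, eBayes, two-sided), with no filter and Benjamini-Hochberg adjustment over 19505 genes at 0.05; no set test was run. The fit was tested on simulated data. "Fell" and "rose" refer to calls of this test. A fold is given as "at least" where 1 group lay under the negative-control bound on every array, using the bound where the signal was lower. The labels name no separate cultures behind the arrays of a group. P-values therefore cover the spread among these 6 samples alone, which could be technical, and the number of arrays limits the precision. Promoter windows and their coordinates are RefSeq's on GRCm38.p6; the sequences were searched with Python 3.11.15. Named genes were all measured members, Adcy9, up to 6 partner genes with the largest rise and up to 4 with the largest fall past the threshold, plus markers; other named partner genes were chosen after their values were seen. The members and lists were chosen with earlier results of these data known. Replicate numbers did not pair the arrays.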

Additional observations from a re-analysis of the deposited data

Results flagged for a closer look

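Of 2634 probe sets without a gene name here, which the comparison left out, 150 were higher in AC9 and 128 lower in AC9 (limma, adjusted over all named genes and these probe sets together), so probe sets that no comparison here used also differed between the groups. In the comparison of named genes alone, 8.26% were higher and 9.29% lower, so these counts do not stand out.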

How the results depend on the processing

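Across 16 alternatives for each of 38 genes, 578 outcomes kept direction and call, 14 lost the call, 7 gained it and 9 turned sign. The trended prior, the replicate block, the adjusted p of 0.01 and leaving out dim genes left every log2 change as it was. Other treatments of genes with several probe sets also altered no change among the 38. Under these alternatives a sign could not turn, so the 578 includes outcomes whose direction was fixed beforehand. Of the 25 genes that rose, 23 kept their call throughout, the exceptions being Fam83d and Clasp1. The 25 higher became 23 to 24 without 1 array and 23 at an adjusted p of 0.01, and the 2 lower stayed 2 without any array, became 1 at 0.01 and became 3 without genes under the bound in both groups, where Haus8 passed (adjusted p 0.0433). Signs turned only for genes near 0: with repeated quantile normalization Numa1 read 0.0158 and Haus4 0.0379, and with median centring Numa1 read 0.00505. Without 1 array Numa1 ranged from -0.104 to 0.0734, Tacc2 from -0.0556 to 0.114, Haus7 from -0.13 to 0.148 and Haus4 from -0.0612 to 0.0311. Psrc1 passed with the trended prior (adjusted p 0.0234), repeated quantile normalization (0.0494), dim genes left out (0.0347 and 0.0286) and without VECTOR replicate 2. Over all genes 968 to 1491 were higher and 1206 to 1534 lower without 1 array (968 and 1206 without AC9 replicate 1, 1061 higher without AC9 replicate 3), and 729 and 941 at an adjusted p of 0.01. Partner genes lower numbered 5 with the trended prior, 4 without genes under the 40th percentile, 5 without genes under the bound and 1 at an adjusted p of 0.01, and 2 to 3 without 1 array, with fewer genes tested in the middle pair.

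The replicate numbers did not pair the arrays: deviations of same-numbered arrays correlated at 0.0085, 0.0814 and 0.0076. With the replicate number as a block 25 of the genes were higher and 2 lower, 1410 and 1652 over all genes; Clasp1 lost its call (adjusted p 0.0547) and Psrc1 gained one (0.0305). CHR letters were in 32.3% of the genes when only the 150 bases before the start were searched (11.2% of all genes), and within 50 bases of the start, a window added after the positions were seen, CCAAT was in 45.2% and E2F-like letters in 0%; a smaller window holds fewer matches by construction. Dim VECTOR signals limit the size of change for Aspm, Shcbp1, Tacc3, Depdc1a and Depdc1b. They may also limit that of Prr11, whose VECTOR replicates 1 and 2 lay just above the bound.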
